A study of Mus musculus with 1152 samples.

Results

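Microglia of the hippocampus were compared with microglia of the cortex in wild-type (WT) C57BL/6J mice, with 4 mice for each region. The cells were chosen by the labels and a filter on read counts: a well counted as a cell when it had 500 or more genes detected and 10000 or more gene reads, of which mitochondrially encoded genes took no more than 20%. That left 182 of 190 hippocampal wells and 167 of 190 cortical wells, 349 cells of the 1041 that passed the same filter in the whole series. The series also holds WT cerebellum and the cortex, hippocampus and cerebellum of 5xFAD mice, a C57BL/6J line whose neurons express mutant human amyloid precursor protein and presenilin 1 from a Thy1 promoter; the 5xFAD cortex (183 cells, 4 mice) and hippocampus (154 cells, 3 mice) enter one comparison here. The WT mice carried no transgene according to the labels, and the labels used here give neither an age nor a sex. Cells came from perfused brains by a Percoll gradient and were sorted into 384-well plates with antibodies to CD11b, CD45, Ly6C, Ly6G and CD206, and each well gave 1 Smart-seq2 library, a full-length method without molecular identifiers. Both WT regions lay on 1 plate, cortex in plate columns 1 to 12 and hippocampus in columns 13 to 24, so region and side of the plate cannot be told apart.

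Microglia are the resident macrophages of the brain, maintained locally by self-renewal and dependent on CSF1R signalling. Their homeostatic program includes the ADP receptor P2ry12, the surface protein Tmem119 and the fractalkine receptor Cx3cr1, and it is lowered when the cells take up the Trem2-dependent and Apoe-dependent state seen around amyloid plaques. Regional differences between microglia are best known for the cerebellum, and the comparison of hippocampus with cortex asks how far the forebrain regions differ from each other in healthy mice.

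The reads of the kept wells were summed per mouse and region, giving 5696201 to 8751028 reads in genes for the 4 cortical sums and 8915085 to 12923320 for the 4 hippocampal sums, and hippocampal levels therefore carry less counting error. The median well held 198492 reads and 2583 genes in cortex, and 235875 reads and 2537.5 genes in hippocampus. All 10 microglial markers were detected in both regions, and their summed level was 64800 to 68341 CPM (counts scaled to the library total) over the cortical mice and 65609 to 72664 CPM over the hippocampal mice. None of the T and NK cell markers passed the filter on low counts. The neutrophil genes S100a8, S100a9, Ltf and Retnlg and the monocyte genes Ly6c2 and Chil3 had no read in either region. Summed border macrophage markers ranged from 1.91 to 291 CPM in cortex and from 0 to 335 CPM in hippocampus. In cortex mouse 1 a single well had more reads on the markers of another cell type than on those of microglia, and in hippocampus none did. This rule did not catch a well of hippocampus mouse 3, described further on, with 6184 CPM of Mrc1 and 23.9 CPM of P2ry12. That well therefore stays in when wells led by other markers are left out. In the 4 blank wells of this plate the phosphate transporter Slc34a2 took 54.6% to 69.8% of the gene reads. In cells Slc34a2 gave 3198, 2519, 3007 and 2915 CPM in the cortex of mice 1 to 4 and 3172, 3088, 3099 and 2716 CPM in the hippocampus, with overlapping ranges.

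No gene passed the threshold between the regions. Of 17358 genes tested with edgeR's quasi-likelihood test on the mouse sums, 0 (0%) had a Benjamini-Hochberg adjusted p under 0.05, and the smallest adjusted p was 0.359. At an unadjusted p under 0.05 there were 1827 genes (10.5%), 481 higher in hippocampus (2.77%) and 1346 lower (7.75%), of which 1247 had a mean under 4 on the log2 CPM scale. These numbers depended on the genes and samples in the fit: with the 8 WT sums alone 206 of 11121 genes were higher and 202 lower at that p, and with a filter of at least 10 CPM in 4 sums 213 of 10086 were higher and 237 lower. The mouse values of the regions did not overlap for 538 genes (3.1%), with hippocampus higher for 215 (1.24%) and lower for 323 (1.86%). Other tools on the same data called more: DESeq2 called 301 genes (1.73%), limma on means over cells 22 (0.127%) and limma voom 5 (0.0288%). Leaving out cortex mouse 3, edgeR called 2 genes, Poli and Il2rg (both at adjusted p = 0.0380, and named after their values were seen), and 0 with any other single mouse left out. Of the 301 genes called by DESeq2, 219 had no read at all in one of the regions. The labels number the mice 1 to 4 in each region and the series' design text has each mouse giving several regions. With the number as a block, edgeR called 5 genes (0.0288%) over the 22 sums of the series and 2 (0.018%) over the 8 WT sums, all of them repeat-rich predicted genes described further on. Deviations of same-numbered sums from the region means had correlations between -0.025 and -0.0022 over the 4 numbers. Over the 12 pairs of other number they were between -0.029 and 0.042. No pair is known to share an animal, so these values cannot tell whether the numbers mark animals.

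How large a difference could have gone unseen depended on the level of the gene. Among genes with a mean of at least 8 on the log2 CPM scale, 513 of 526 (97.5%) had a 95% interval of the regional difference that lay wholly within 2-fold in either direction. Between 4 and 8 on that scale the share was 1521 of 6005 genes (25.3%), and below 4 it was 0 of 10827. The median log2 difference, hippocampus minus cortex, was 0.02 over the 526 genes of highest level, 0.03 over the middle class and -0.35 over the genes below 4. Correlations of whole profiles within and between the regions overlapped. Over the 6531 genes of at least 4, Pearson's correlation between the log2 CPM of 2 sums ran from 0.686 to 0.754 within cortex, from 0.757 to 0.787 within hippocampus and from 0.701 to 0.77 between a cortical and a hippocampal sum.

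**Figure D1:**
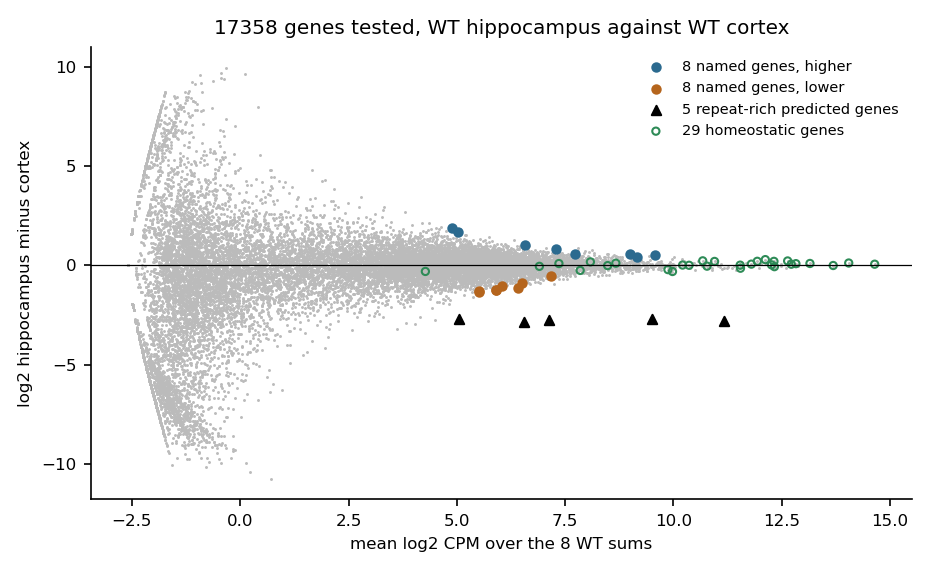
Each gray point is 1 of 17358 genes; the horizontal axis is the mean log2 CPM over the 8 WT sums and the vertical axis the log2 difference, hippocampus minus cortex, from edgeR. The spread narrows with level, the 29 homeostatic genes (green rings) lie between -0.30 and 0.30, and the 5 repeat-rich predicted genes (triangles) lie near -2.8, while none of the points passed the threshold.

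The homeostatic program was at nearly the same level in both regions. P2ry12, the ADP receptor that steers microglial processes to injury, measured 8332, 8374, 9251 and 9268 CPM in the cortex of mice 1 to 4 and 9627, 10672, 8783 and 8715 CPM in the hippocampus. The ranges overlapped, and the log2 difference was 0.10 ± 0.08 (edgeR, 95% interval -0.07 to 0.27, adjusted p = 0.798). Tmem119 measured 4188, 4824, 5015 and 5108 CPM in the cortex of mice 1 to 4 and 4687, 5653, 5245 and 6521 CPM in the hippocampus, again overlapping. Its log2 difference was 0.21 ± 0.13 (edgeR, adjusted p = 0.637). For the fractalkine receptor Cx3cr1 the values were 6191, 7032, 6830 and 6406 CPM in the cortex of mice 1 to 4 and 7371, 7044, 7012 and 6229 CPM in the hippocampus, with a log2 difference of 0.06 ± 0.08 and a 95% interval of -0.10 to 0.23. Hippocampus mouse 4 and cortex mouse 1 had the lowest Cx3cr1 values of their regions. Csf1r, the receptor for the survival factors of microglia, averaged 13221 ± 599.8 CPM in cortex and 13211 ± 824 CPM in hippocampus (SD, n = 4 mice each).

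**Figure D2:**
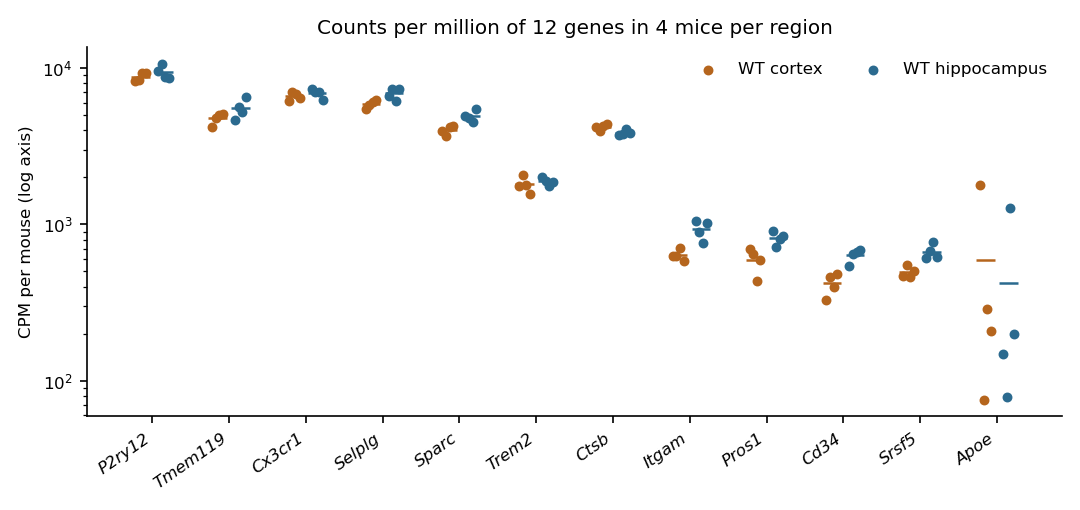
Each point is 1 mouse, with CPM on a log axis for 12 genes, cortex on the left and hippocampus on the right of each pair, and the bar is the mean of 4 mice. Points of the regions interleave for P2ry12, Tmem119, Cx3cr1 and Trem2, do not overlap for Sparc, Itgam, Pros1, Cd34 and Srsf5, and are widely spread for Apoe.

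Of the 29 homeostatic genes, 19 had a positive and 10 a negative difference. Their median log2 difference was 0.06 and their range -0.30 to 0.30, against a median of -0.07 and a range of -10.74 to 9.98 over all genes tested. The 526 genes with a mean of at least 8 on the log2 CPM scale had a median of 0.02 and a range of -2.80 to 0.78. Of those 526 genes, 97.5% had a 95% interval within 2-fold. Small differences were thus not particular to the homeostatic list. For 28 of the 29 the 95% interval lay within 2-fold; the exception was Gpr165, an orphan receptor with 23.8 ± 14 CPM in cortex and 19.3 ± 5.01 CPM in hippocampus. None passed the adjusted threshold, and 3 had an unadjusted p under 0.05, all higher in hippocampus, among them Sparc and Selplg (10.3% of the list in either direction, against 10.5% of all genes). Sparc, a secreted matrix-binding protein, measured 4964, 4826, 4505 and 5487 CPM in the hippocampus of mice 1 to 4, against 3944, 3690, 4190 and 4293 CPM in the cortex. Every hippocampal mouse exceeded every cortical mouse, and the log2 difference was 0.30 ± 0.09 (edgeR, 95% interval 0.10 to 0.49, adjusted p = 0.474). Selplg, the selectin ligand PSGL-1, gave 6683, 7382, 6155 and 7402 CPM in the hippocampus of mice 1 to 4, against 5519, 5791, 6037 and 6233 CPM in the cortex. Hippocampus mouse 3 lay among the cortical mice, and the log2 difference was 0.23 ± 0.09 (edgeR, adjusted p = 0.474). The lowest difference of the list was that of Cd33, an inhibitory sialic acid receptor, with 1128 ± 136 CPM in cortex and 914 ± 137 CPM in hippocampus and a log2 difference of -0.30 ± 0.18.

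**Figure D3:**
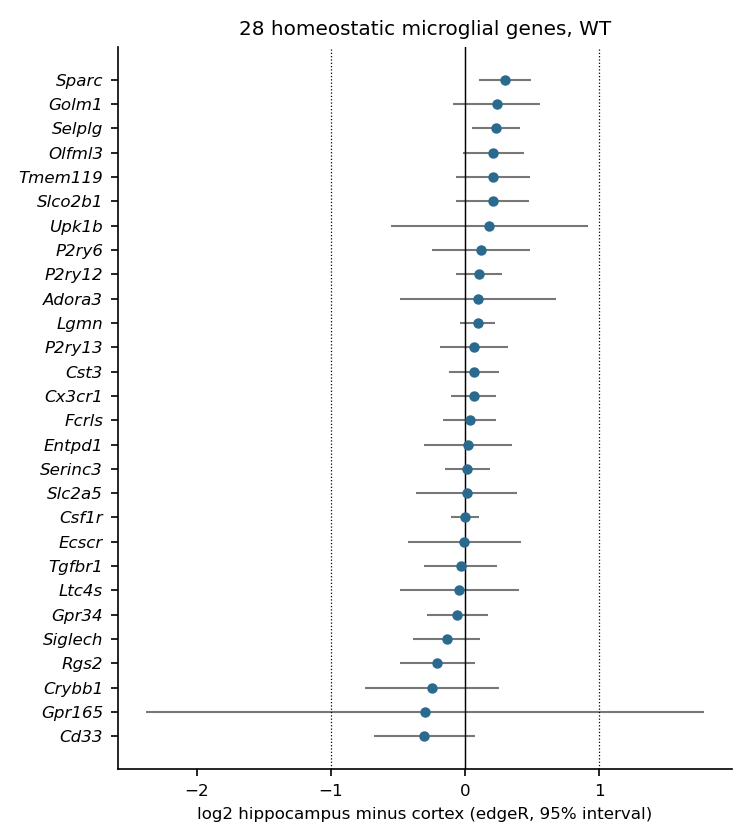
The horizontal axis is the log2 difference, hippocampus minus cortex, for 28 of the homeostatic genes; points are edgeR estimates, lines their 95% intervals and dotted lines mark a 2-fold difference. All intervals but that of Gpr165 stay inside the dotted lines, and the largest positive estimate is that of Sparc at 0.30.

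No transcription factor of microglial identity passed the adjusted threshold. Sall1, which maintains the microglial state, averaged 490.4 ± 45.2 CPM in cortex and 535 ± 110.0 CPM in hippocampus (SD, n = 4 mice each), a log2 difference of 0.12 ± 0.19. Irf8 differed by 0.20 ± 0.16 and Mef2c by -0.19 ± 0.16 on the log2 scale. Of the 25 factors tested 10 had an interval within 2-fold, and 3 (12%) had an unadjusted p under 0.05, against 10.5% of all genes, with 2 higher in hippocampus and 1 lower. Their fitted log2 differences ran from -6.69 for Bhlhe40, with no read in hippocampus, to 8.73 for Klf2, with no read in cortex, with a median of 0.15. Runx1, a hematopoietic factor, gave 109.6, 169, 151 and 102 CPM in the hippocampus of mice 1 to 4, against 93.7, 108, 79.1 and 67.6 CPM in the cortex. The ranges overlapped at cortex mouse 2 and hippocampus mouse 4, and the log2 difference was 0.61 ± 0.22 (edgeR, adjusted p = 0.474). Klf2, a zinc finger factor, had no read in the 167 cortical cells, which allows a share of cells with a read of up to 1.80%. It had reads in 9 of 182 hippocampal cells, all from mice 3 and 4 (15.4 and 2.31 CPM). Against the floor of 3 counts over the cortical sums the pooled reads were 49.4-fold higher, but 1 well held 40% of them. The ratio leaves out the spread between cells and mice, and edgeR's 95% interval of the log2 difference was 3.46 to 14.01.

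Among the genes of complement and phagocytosis, Itgam, Pros1 and Gas6 had higher means in hippocampus, and none passed the adjusted threshold. Itgam, the alpha chain of complement receptor 3 and the CD11b used in the sort of both regions, lies at chr7:128062640-128118491 on the plus strand (GRCm38). It gave 1051, 894, 759.7 and 1016 CPM in the hippocampus of mice 1 to 4, against 623, 628, 706 and 584 CPM in the cortex. The regions did not overlap, hippocampus mouse 3 coming nearest to cortex, and the log2 difference was 0.55 ± 0.16 (edgeR, 95% interval 0.21 to 0.89, adjusted p = 0.474). Pros1 and Gas6 encode the ligands that bridge phosphatidylserine to the receptors Mertk and Axl. For Pros1 the values were 901, 715, 811 and 840.3 CPM in the hippocampus of mice 1 to 4, against 696, 648, 433 and 591 CPM in the cortex, without overlap and with a log2 difference of 0.46 ± 0.16. Gas6 gave 235, 327, 324 and 217 CPM in the hippocampus of mice 1 to 4, against 264, 210.2, 179.6 and 145 CPM in the cortex, overlapping at cortex mouse 1, with a log2 difference of 0.46 ± 0.20. Mertk itself averaged 835 ± 95.2 CPM in cortex and 855 ± 97.7 CPM in hippocampus (SD, n = 4 mice each). Trem2, the lipid-sensing receptor of the plaque response, measured 1770, 2071, 1794 and 1577 CPM in the cortex of mice 1 to 4 and 2018, 1894, 1754 and 1873 CPM in the hippocampus. Its ranges overlapped and its log2 difference was 0.06 ± 0.10 with a 95% interval of -0.14 to 0.27. The complement genes differed little: C1qa by 0.07 ± 0.09, C1qb by -0.01 ± 0.08 and C1qc by -0.06 ± 0.08 on the log2 scale. Over the list of 29 tested genes of complement and phagocytosis, 0 passed the adjusted threshold, 3 had an unadjusted p under 0.05 with hippocampus higher and 2 with hippocampus lower (17.2% of the list, against 10.5% of all genes), and the median log2 difference was 0.03.

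In the list of the disease-associated state 0 of 45 passed the adjusted threshold, 20 differences were positive and 25 negative, and the median log2 difference was -0.09. The unadjusted p was under 0.05 for 3 genes with hippocampus higher and 5 with hippocampus lower (17.8% of the list, against 10.5% of all genes). Aplp2, a relative of the amyloid precursor protein at chr9:31149557-31211815 on the minus strand, gave 105, 127, 169 and 174 CPM in the hippocampus of mice 1 to 4, against 101, 92, 36 and 53.4 CPM in the cortex. Hippocampus mouse 1 lay just above cortex mouse 1, and the log2 difference was 1.03 ± 0.31 (edgeR, adjusted p = 0.474). Capg, an actin-capping protein, gave 61.4, 81.8, 41.3 and 76.1 CPM in the hippocampus of mice 1 to 4, against 13.9, 59.4, 19.3 and 22 CPM in the cortex, with cortex mouse 2 inside the hippocampal range. Its log2 difference was 1.18 ± 0.40. The protease inhibitor Cst7 had reads in 9 cortical and 7 hippocampal cells, with 0, 17.8, 0 and 17.7 CPM in the cortex of mice 1 to 4 and 0.777, 23.7, 4.45 and 0 CPM in the hippocampus. Its log2 difference was -0.33 ± 1.21 with a 95% interval of -2.84 to 2.17. Gpnmb and Spp1, both strongly induced near plaques, had no read in the hippocampal sums and averaged 1.31 ± 2.04 and 0.256 ± 0.329 CPM in cortex (SD, n = 4 mice). Lysosomal genes were close to even, with 17 positive and 24 negative differences and a median of -0.06 over 41 genes, of which 33 had an interval within 2-fold. Ctsb differed by -0.12 ± 0.10, Ctsd by 0.03 ± 0.13 and Ctsa by -0.22 ± 0.11 on the log2 scale, and 0 of the 41 passed the adjusted threshold.

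Apoe, the lipid carrier, and the class II genes H2-Ab1 and H2-Eb1 of antigen presentation varied widely between mice within each region, and single wells set their highest values. Apoe measured 1796, 75.7, 285 and 207 CPM in the cortex of mice 1 to 4 and 147, 78.6, 1266 and 200.2 CPM in the hippocampus. Cortex mouse 1 and hippocampus mouse 3 stood far above the others, and the log2 difference was -0.48 ± 0.83 (edgeR, adjusted p = 0.990). One well of cortex mouse 1 held 67.9% of all cortical Apoe reads, 96% of those of the class II gene H2-Ab1 and 98.8% of those of H2-Eb1. One well of hippocampus mouse 3 held 61.6% of hippocampal Apoe reads, 94% of H2-Ab1 and 97.4% of H2-Eb1. Both wells were well covered, with 220056 and 335397 reads in genes. They had only 13.6 and 23.9 CPM of P2ry12, and 5898 and 6184 CPM of Mrc1, which encodes the CD206 of border macrophages and of the sort. Pf4, another border macrophage gene, was at 886 and 784 CPM in them, and Lyz2 at 37899 and 47201 CPM. The wells differed in other markers. Ms4a7, also on the border macrophage list, was at 0 CPM in the cortical well and 218 CPM in the hippocampal well. The monocyte gene Ccr2 was at 1227 CPM in the cortical well and 0 CPM in the hippocampal well. Without its well, cortex mouse 1 had 44.7 CPM of Apoe and 0 CPM of H2-Ab1, and hippocampus mouse 3 had 258 CPM of Apoe and 6.15 CPM of H2-Ab1. H2-Ab1 with all wells gave 1375, 10.2, 14.1 and 16.4 CPM in the cortex of mice 1 to 4 and 8.66, 0.218, 598 and 22.9 CPM in the hippocampus. H2-Ob, another class II gene, was read in 33 cortical and 43 hippocampal cells, and its top well held 15.7% and 8.60% of the reads of its region. Of the 10 class II genes 0 passed the adjusted threshold and 0 had an unadjusted p under 0.05, against 10.5% of all genes. Of the 19 class I genes 0 passed the adjusted threshold, and H2-D1 gave 742, 742, 699 and 784 CPM in the cortex of mice 1 to 4 and 765, 470.0, 742 and 512 CPM in the hippocampus, a log2 difference of -0.25 ± 0.16 with overlapping ranges.

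Since no gene passed the threshold, the 8 genes of smallest unadjusted p in each direction were taken that were no predicted genes, had a mean of at least 4 on the log2 CPM scale, detection in 20% or more of the cells of a region, and mouse values without overlap. All 16 missed the threshold, at an adjusted p of 0.474 each in edgeR, and the absence of overlap was part of how they were chosen. Itgam and Aplp2 are described above. Nckipsd, an adaptor of actin assembly at chr9:108808368-108818844 on the plus strand, gave 57.6, 65.4, 65.1 and 61.7 CPM in the hippocampus of mice 1 to 4, against 11.9, 35, 15.3 and 5.38 CPM in the cortex. Its hippocampal values lay within a few CPM of each other, and the log2 difference was 1.88 ± 0.49 (95% interval 0.88 to 2.89). Stx16, a SNARE of the trans-Golgi at chr2:174076308-174099771 on the plus strand, gave 41.9, 77.1, 75.3 and 46.5 CPM in the hippocampus of mice 1 to 4, against 12.1, 16.5, 23.5 and 22.8 CPM in the cortex, a log2 difference of 1.69 ± 0.46. Reads of Nckipsd came from 19 cortical and 41 hippocampal cells, and those of Stx16 from 34 and 55. Srsf5, a splicing factor at chr12:80945504-80950507 on the plus strand, gave 605, 677, 768 and 622 CPM in the hippocampus of mice 1 to 4, against 465, 549, 463 and 501 CPM in the cortex. Its log2 difference was 0.43 ± 0.12, and it was read in 147 cortical and 172 hippocampal cells. Cd34, a sialomucin of blood progenitors and vessels at chr1:194938819-194961279 on the plus strand, gave 543, 649, 661 and 691 CPM in the hippocampus of mice 1 to 4, against 330.2, 462, 399 and 485 CPM in the cortex. Cortex mouse 1 was lowest and hippocampus mouse 4 highest, and the log2 difference was 0.60 ± 0.17. Hps4, a subunit of the BLOC-3 complex of lysosome-related organelles at chr5:112343083-112378414 on the plus strand, gave 239.8, 268, 273 and 261 CPM in the hippocampus of mice 1 to 4, against 148, 176, 185 and 182 CPM in the cortex, a log2 difference of 0.59 ± 0.18. Arhgap25, a Rac GTPase-activating protein of leukocytes at chr6:87458545-87533259 on the minus strand, gave 173, 238, 229 and 212 CPM in the hippocampus of mice 1 to 4, against 86.1, 148, 148 and 94.8 CPM in the cortex, a log2 difference of 0.84 ± 0.26.

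Among the 8 genes lower in hippocampus, Tpi1 encodes triosephosphate isomerase of glycolysis and lies at chr6:124810586-124814296 on the minus strand. It gave 105, 110.0, 72.9 and 95.2 CPM in the cortex of mice 1 to 4 and 45, 38.8, 39.5 and 61.3 CPM in the hippocampus. The lowest cortical mouse, mouse 3, was above the highest hippocampal one, mouse 4, and the log2 difference was -1.05 ± 0.28 (95% interval -1.64 to -0.46). Atp5g3, at chr2:73908447-73911326 on the minus strand, encodes subunit c of ATP synthase and has close paralogs, so the split of reads between the copies is uncertain. It gave 90.9, 66.6, 85.4 and 49.1 CPM in the cortex of mice 1 to 4 and 33.8, 32.4, 21.9 and 31.3 CPM in the hippocampus, a log2 difference of -1.29 ± 0.35. U2surp, an RNA-binding partner of the U2 particle at chr9:95456898-95511996 on the minus strand, gave 128, 166, 136 and 95.5 CPM in the cortex of mice 1 to 4 and 37, 82, 69.9 and 47.6 CPM in the hippocampus, a log2 difference of -1.15 ± 0.34. Raly, an RNA-binding protein of the hnRNP family at chr2:154791096-154867261 on the plus strand, gave 59.9, 79.9, 115 and 126 CPM in the cortex of mice 1 to 4 and 28.1, 34.8, 42 and 56.5 CPM in the hippocampus, a log2 difference of -1.24 ± 0.37. Among the cortical mice, mouse 4 was the lowest for U2surp and the highest for Raly. Vps13b, a protein of Golgi membranes at chr15:35371160-35931229 on the plus strand, gave 49.1, 114, 82.4 and 139 CPM in the cortex of mice 1 to 4 and 34.1, 47, 44.4 and 37 CPM in the hippocampus, a log2 difference of -1.24 ± 0.37. Cdc37l1, a cochaperone of Hsp90 at chr19:28990352-29026681 on the plus strand, gave 74.4, 74.5, 90.5 and 65.6 CPM in the cortex of mice 1 to 4 and 28.5, 30.5, 11.7 and 51.7 CPM in the hippocampus, a log2 difference of -1.32 ± 0.42. Rab8b, a GTPase of vesicle transport at chr9:66843664-66919687 on the minus strand, gave 152, 172, 192 and 179 CPM in the cortex of mice 1 to 4 and 104, 146, 117 and 112 CPM in the hippocampus, a log2 difference of -0.53 ± 0.18. Wbp1l, a WW-domain-binding membrane protein at chr19:46599084-46657389 on the plus strand, gave 108, 104, 114 and 182 CPM in the cortex of mice 1 to 4 and 96.2, 50.2, 73.8 and 56.9 CPM in the hippocampus, a log2 difference of -0.88 ± 0.30. Among the cortical mice, mouse 4 was the highest for Vps13b and Wbp1l and the lowest for Cdc37l1. In the 5xFAD mice, which share no sample with the WT comparison, 8 of the 16 genes (50%) had a hippocampus minus cortex difference of the same sign, against 46.8% of all genes tested and 49.6% of the 6531 genes of at least 4 on the log2 CPM scale. Cd34 and Aplp2 were among those of the same sign, at 0.52 ± 0.18 and 0.79 ± 0.33 on the log2 scale in 5xFAD, and Stx16 and Tpi1 among those of the opposite sign, at -1.30 ± 0.50 and 0.70 ± 0.30.

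Glycolytic genes and mitochondrially encoded messages had mostly negative differences, and none passed the threshold. Of 20 glycolytic genes 14 had a negative difference, the median was -0.24 on the log2 scale, and 2 (10% of the list, against 7.75% of all genes lower) had an unadjusted p under 0.05, Tpi1 and Pfkp. Pfkp, a phosphofructokinase, had reads in 7 cortical cells (3.27, 18.4, 1.49 and 4.37 CPM in mice 1 to 4) and in 0 of 182 hippocampal cells, which allows a share of cells with a read of up to 1.65%. Measured against 3 counts over the hippocampal sums its pooled reads were 105-fold lower in hippocampus, with 68.9% of the cortical reads in 1 well. This ratio, too, leaves out the spread between cells and mice, and edgeR's 95% interval of the log2 difference was -14.1 to -4.63. Other glycolytic genes differed less: Aldoa by -0.11 ± 0.17, Pkm by -0.19 ± 0.24 and Ldha by -0.04 ± 0.22 on the log2 scale. All 8 mitochondrially encoded messages that were tested had a negative difference, from -0.57 to -0.13 with a median of -0.21, and 7 of the 8 intervals lay within 2-fold. Mitochondrial messages are cut from long shared precursors and are not independent of each other. mt-Cytb, which encodes cytochrome b of the respiratory chain, gave 3317, 2867, 3095 and 2832 CPM in the cortex of mice 1 to 4 and 2808, 2231, 2607 and 2553 CPM in the hippocampus, just without overlap. Its log2 difference was -0.25 ± 0.15 (edgeR, adjusted p = 0.595). In the fit on means over cells the sign of mt-Cytb turned, to 0.35, as did those of mt-Co1 (0.62) and mt-Nd5 (0.31). That fit averages log2 CPM over wells, with every well counting alike, which is another measure than the summed reads. The 43 nuclear-encoded respiratory chain genes were even, with 23 positive and 20 negative differences and a median of 0.04.

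No gene of activation or of handling passed the threshold. Of 28 cytokine, chemokine and NF-kB feedback genes tested, 0 passed the adjusted threshold and 3 had an unadjusted p under 0.05, all with hippocampus higher (10.7% of the list, against 2.77% of all genes higher and 10.5% in either direction), and the median log2 difference was 0.34. The chemokine Ccl9 gave 316, 252, 275 and 424 CPM in the hippocampus of mice 1 to 4, against 233, 217, 159.6 and 83.7 CPM in the cortex. Its ranges did not overlap, and the log2 difference was 0.87 ± 0.37 (edgeR, adjusted p = 0.474). Ccl4 was read in 2 cortical and 4 hippocampal cells, with 92.9 CPM in hippocampus mouse 1 and at most 6.11 CPM in any other mouse, and 1 well held 93% of the hippocampal reads. Cxcl9, the last of the 3, was read in 1 cortical and 3 hippocampal cells, with 70.9% of the hippocampal reads in 1 well. Its log2 difference turned to -0.40 without hippocampus mouse 2. The inhibitor Nfkbia averaged 125 ± 42.9 CPM in cortex and 124 ± 23.5 CPM in hippocampus, and the cytokines Tnf and Il1b differed by -1.49 ± 1.64 and -0.87 ± 1.96 on the log2 scale. Among 27 immediate early genes tested, which respond to dissociation, 0 passed the adjusted threshold, 4 had an unadjusted p under 0.05 with hippocampus higher (14.8%, against 2.77% of all genes), and the median was 0.20. Klf2 and Egr1, both among the 4, had no read in cortex. Egr1 was read in 3 hippocampal cells, with 95.2% of its reads in 1 well. Jun gave 101, 83.8, 62.9 and 116 CPM in the hippocampus of mice 1 to 4, against 43.6, 63.8, 38.4 and 28.7 CPM in the cortex. Hippocampus mouse 3 was just below cortex mouse 2, and the log2 difference was 1.06 ± 0.38 (edgeR, adjusted p = 0.474). Fos averaged 0.0770 ± 0.0901 CPM in cortex and 0.627 ± 1.18 CPM in hippocampus. Sgk1, a kinase induced by glucocorticoids, gave 679, 473, 657 and 822 CPM in the hippocampus of mice 1 to 4, against 444, 537, 407 and 483 CPM in the cortex. Its ranges overlapped at hippocampus mouse 2, and the log2 difference was 0.49 ± 0.16. Sgk1 was the 1 gene of 15 on the glucocorticoid list with an unadjusted p under 0.05 (6.67% of the list, against 10.5% of all genes). The 18 heat shock genes had a median of 0.11 and 0 genes at an unadjusted p under 0.05, against 10.5% of all genes.

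Interferon-stimulated genes were sparse. Of 36 tested 0 passed the adjusted threshold, 22 differences were negative, and the median of -0.36 stood beside -0.35 for the 10827 genes of low level. Slfn5 was read in 4 cortical cells, with 28.4, 0, 0.271 and 11.2 CPM in mice 1 to 4, and in 0 of 182 hippocampal cells. Against 3 counts over the hippocampal sums its pooled reads were 126-fold lower there, and 1 cortical well held 61.4% of the cortical reads. That ratio leaves out the spread between cells and mice, and edgeR's 95% interval of the log2 difference was -14.2 to -5.56. Ifi44 came from 1 well of cortex mouse 1 alone.

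In the remaining lists, too, no gene passed the adjusted threshold. Among 22 TGF-beta pathway genes, the signal that maintains microglia, the median log2 difference was -0.05; the receptor Tgfbr1 differed by -0.03 ± 0.13, and the 3 genes with an unadjusted p under 0.05, 13.6% of the list (Tgfb3, Ltbp1 and Smad6, all lower in hippocampus, against 7.75% of all genes), were read in 3, 12 and 2 cortical cells. The 16 purinergic genes tested had a median of 0.03, and P2ry13 differed by 0.07 ± 0.12. The 40 cytoskeletal genes had a median of 0.09 with 30 intervals within 2-fold, and Actb differed by 0.07 ± 0.07. Cell cycle genes had a median of -0.51 over 27 tested, beside -0.35 for the 10827 genes of low level. At an unadjusted p under 0.05, 1 was higher in hippocampus and 1 lower (7.41% of the list, against 10.5% of all genes). Ccne2, a cyclin, was the higher one, at 0.401 ± 0.354 CPM in cortex and 9.05 ± 7.19 CPM in hippocampus. It was read in 4 cortical and 9 hippocampal cells. Mki67, a marker of dividing cells, averaged 6.74 ± 4.10 CPM in cortex and 1.30 ± 0.713 CPM in hippocampus. Tyms, thymidylate synthase, gave 30.0, 27.7, 66 and 33.5 CPM in the cortex of mice 1 to 4 and 16.4, 6.44, 13.3 and 12.3 CPM in the hippocampus, without overlap. Only 12 cortical and 14 hippocampal cells had a read of it, and its log2 difference was -1.70 ± 0.84 (edgeR, adjusted p = 0.481). The 31 lipid-handling genes had a median of 0.18, the 17 tested genes of the clearance program of cerebellar microglia -0.13, the 33 tested genes at Alzheimer risk loci -0.04 and the 85 cytosolic ribosomal protein genes -0.01, and 0 genes of these lists passed the adjusted threshold. Cr1l, a complement regulator on the risk list, gave 187, 196, 115 and 170.2 CPM in the cortex of mice 1 to 4 and 130.4, 94.9, 116 and 94.1 CPM in the hippocampus, overlapping at cortex mouse 3, with a log2 difference of -0.62 ± 0.28. Slc39a12, a zinc transporter, gave 102, 53.9, 72.8 and 48.7 CPM in the cortex of mice 1 to 4 and 43.7, 44.8, 43.5 and 24.1 CPM in the hippocampus. Its ranges did not overlap, but reads came from 21 cortical and 13 hippocampal cells and the log2 difference was -0.83 ± 0.74 (edgeR, adjusted p = 0.838).

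A large regional contrast was seen in 5 predicted genes that consist of repeats, Gm10800, Gm10801, Gm10717, Gm21738 and Gm10722, singled out after their values were seen. They lie on several chromosomes: Gm10800 at chr2:98666547-98667301 on the minus strand, Gm10801 at chr2:98662237-98664083 on the plus strand, Gm21738 at chr14:19415857-19418930 on the minus strand, Gm10717 at chr9:3025417-3033289 on the plus strand and Gm10722 at chr9:3000922-3002330 on the plus strand (GRCm38, GENCODE M21, annotated as coding). The runs below are the longest stretches that the annotated transcript of each gene has in common, letter for letter, with that of Gm10800, and reads within them cannot be assigned to one locus. Capitals mark the 12-base word that recurs most often in Gm10800, TTTTCAGTTTTC, found 7 times in its 660 bases, with overlap allowed and on the transcript strand.
Gm10801 shared with Gm10800: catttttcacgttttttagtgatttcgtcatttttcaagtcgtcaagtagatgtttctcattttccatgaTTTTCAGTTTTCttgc
Gm21738 shared with Gm10800: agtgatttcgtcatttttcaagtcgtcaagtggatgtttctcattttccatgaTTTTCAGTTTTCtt
Gm10717 shared with Gm10800: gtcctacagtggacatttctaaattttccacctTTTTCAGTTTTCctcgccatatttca
Gm10722 shared with Gm10800: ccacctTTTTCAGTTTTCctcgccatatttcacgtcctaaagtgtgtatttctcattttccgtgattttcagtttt
The runs are 86, 67, 59 and 76 bases long. Of the 25-base words of Gm10801, 37.7% also occur in Gm10800.

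Gm10800 measured 12694, 5661, 6173 and 3577 CPM in the cortex of mice 1 to 4 and 1755, 1361, 539.8 and 375 CPM in the hippocampus. The highest hippocampal mouse was below the lowest cortical mouse, and the log2 difference was -2.80 ± 0.62 (edgeR, 95% interval -4.08 to -1.52, adjusted p = 0.474). With the replicate number as a block over the 22 sums all 5 genes passed the threshold, Gm10800 at a log2 difference of -2.92. Gm10801 gave 3804, 1789, 1902 and 1090 CPM in the cortex of mice 1 to 4 and 617, 432, 160.1 and 124 CPM in the hippocampus, a log2 difference of -2.69 ± 0.60, and the other three differed by -2.75 ± 0.66 (Gm10717), -2.84 ± 0.64 (Gm21738) and -2.70 ± 0.67 (Gm10722). The contrast rested on a minority of wells. The median well had 596 CPM of Gm10800 in cortex and 454 CPM in hippocampus, but 35 of 167 cortical wells (21%, exact 95% binomial interval 15.1% to 27.9%) and 6 of 182 hippocampal wells (3.30%, 1.22% to 7.04%) were above 10000 CPM. These intervals cover counting error only. By mouse these were 11 of 37, 8 of 43, 10 of 45 and 6 of 42 cortical wells, and 4 of 46, 2 of 45, 0 of 47 and 0 of 44 hippocampal wells. Those wells held 91.8% of the cortical and 47% of the hippocampal Gm10800 reads, and in the highest of them Gm10800 alone took 30.8% of the gene reads.

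The wells rich in Gm10800 were shallow. In cortex they had a median of 32004 reads against 222228 in the other kept wells, and in hippocampus 33440 against 237908. Of the 34 cortical wells under 50000 reads 33 were above 10000 CPM of Gm10800, and of the 5 such hippocampal wells 4 were. They still had a median of 2124 genes in cortex, against 2616 in the other wells, and 1054 against 8999 CPM of P2ry12. Reads on the ERCC spike-in RNAs made up 1.03% of their reads, against 0.233%. The 4 blank wells of the plate had 0 Gm10800 reads among 3109 to 6756 gene reads. Such wells occurred in every group: 29 of 162 kept wells of WT cerebellum, 9 of 183 of 5xFAD cortex, 27 of 154 of 5xFAD hippocampus and 6 of 193 of 5xFAD cerebellum were above the same level. Without these wells, a repeat of the fit chosen after seeing the data, the log2 difference was -0.14 for Gm10800 and -0.25 for Gm10801; since the wells were chosen by their Gm10800 level, these values follow from the choice. Under a filter that did not use Gm10800 (at least 1000 genes and 50000 reads, at most 10% mitochondrial reads) they were -0.02 and -0.09. Its limit of 50000 reads left out 33 of the 35 cortical and 4 of the 6 hippocampal wells rich in Gm10800, so it is no separate check. With all kept wells 1346 of 17358 genes tested were lower and 481 higher at an unadjusted p under 0.05. Without the wells rich in Gm10800 456 of 14763 genes tested were lower and 637 higher. These are counts over different sets of genes, and the number past the adjusted threshold stayed at 0. The 16 named genes all kept their sign, which is no independent support, since they were chosen for mouse values without overlap.

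**Figure D4:**
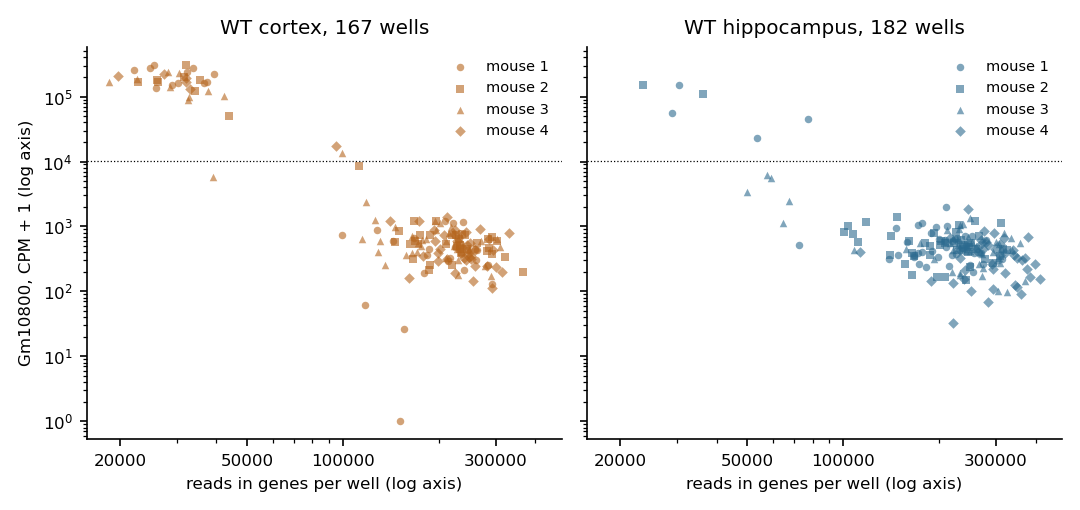
Each point is 1 kept well, with reads in genes (log axis) on the horizontal axis and Gm10800 in CPM plus 1 (log axis) on the vertical axis; symbols are mice and the dotted line is 10000 CPM. Above the line are 35 of 167 cortical and 6 of 182 hippocampal wells, nearly all of them at the left with few reads.

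None of the 5 measures per cell passed the threshold at 4 mice each, a design whose smallest possible p is 0.0286. With the adjustment over the 5 measures, a single measure at that p could not pass alone. The median reads per cell were 178530, 209523, 171804 and 224934 in the cortex of mice 1 to 4 and 208486, 207635, 245048 and 292755 in the hippocampus. Their mean was 238481 ± 40166 in hippocampus and 196198 ± 25236 in cortex (SD, n = 4 mice each, exact permutation test, two-sided, adjusted p = 0.333 over the 5 measures). Hippocampus mouse 4 had the deepest cells and cortex mouse 3 the shallowest. The median number of genes detected was 2509, 2518, 2498 and 2670 in cortex and 2488, 2400, 2602 and 2674 in hippocampus, a mean of 2541 ± 121 in hippocampus and 2549 ± 81.2 in cortex (SD, n = 4 mice each, exact permutation test, two-sided, adjusted p = 0.829 over the 5 measures). In percent of the reads per cell, mitochondrially encoded genes took 1.59 ± 0.0806 in hippocampus and 1.65 ± 0.105 in cortex (SD, n = 4 mice each, exact permutation test, two-sided, adjusted p = 0.464 over the 5 measures). The ERCC share in percent was 0.248 ± 0.0153 in hippocampus and 0.273 ± 0.0267 in cortex (SD, n = 4 mice each, exact permutation test, two-sided, adjusted p = 0.333 over the 5 measures). The share of cytosolic ribosomal protein genes in percent was 0.352 ± 0.0269 in hippocampus and 0.380 ± 0.0259 in cortex (SD, n = 4 mice each, exact permutation test, two-sided, adjusted p = 0.333 over the 5 measures). The ribosomal share was 0.371, 0.404, 0.348 and 0.398 percent in cortex and 0.320, 0.341, 0.381 and 0.367 percent in hippocampus. Under a stricter filter (at least 1000 genes and 50000 reads, at most 10% mitochondrial reads) or without the wells rich in Gm10800 the hippocampal mice were all below the cortical mice for the ribosomal share, with an exact permutation p of 0.0286 and an adjusted p of 0.143.

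The regional difference in WT was set against that in 5xFAD mice in the same fit, a test of the difference between the 2 contrasts. It passed the threshold for 8 of 17358 genes (0.0461%), 1 with a more positive difference in WT (0.00576%) and 7 with a more negative one (0.0403%): mt-Nd5, mt-Co1, mt-Rnr2, Ctsb, Selplg, Gm10800, Gm10801 and Gm21738. The number was 0 to 7 with one WT mouse left out, 0 without hippocampus mouse 3. The 5xFAD cortex and hippocampus lay on different plates, so in these mice region and plate cannot be told apart. Within 5xFAD itself 6 genes (0.0346%) passed between hippocampus and cortex. Ctsb, a lysosomal cysteine protease, gave 4179, 3958, 4246 and 4386 CPM in the cortex of mice 1 to 4 and 3733, 3768, 4088 and 3856 CPM in the hippocampus in WT. In 5xFAD it was 6863 to 8672 CPM with a median of 7887 in cortex and 12018 to 13286 CPM with a median of 12082 in hippocampus. The log2 difference was -0.12 ± 0.10 in WT and 0.67 ± 0.10 in 5xFAD, and WT minus 5xFAD was -0.79 ± 0.14 (edgeR, adjusted p = 0.0372). Selplg went the other way, 0.23 ± 0.09 in WT and -0.46 ± 0.09 in 5xFAD, where it was 5567 to 6000 CPM with a median of 5787 in cortex and 3872 to 4466 CPM with a median of 4261 in hippocampus (WT minus 5xFAD 0.69 ± 0.13, edgeR, adjusted p = 0.0442).

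The mitochondrially encoded mt-Co1, a subunit of cytochrome oxidase, gave 2879, 2544, 2872 and 2671 CPM in the cortex of mice 1 to 4 and 2540, 2455, 2583 and 2464 CPM in the hippocampus in WT. In 5xFAD it was 2900 to 3716 CPM with a median of 3150 in cortex and 4893 to 7993 CPM with a median of 6485 in hippocampus, and the difference of the 2 log2 differences was -1.13 ± 0.17 (edgeR, adjusted p = 0.0162). For mt-Nd5, a subunit of complex I, it was -1.09 ± 0.17, and for the ribosomal RNA mt-Rnr2 -1.23 ± 0.20. The WT differences of these 3 genes were -0.13 ± 0.12, -0.18 ± 0.11 and -0.04 ± 0.14, against 1.00 ± 0.13, 0.91 ± 0.12 and 1.19 ± 0.15 in 5xFAD. Without the wells rich in Gm10800, mt-Nd5, mt-Co1, mt-Rnr2 and Ctsb still passed, and Selplg and the 3 predicted genes did not. For the 3 predicted genes this follows from choosing the wells by their Gm10800 level. In the fit on means over cells, where every well counts alike, the sign turned for mt-Co1 (0.40), mt-Nd5 (0.16) and Ctsb (0.15). Under the stricter filter on cells 0 genes passed. The difference between the contrasts was then -0.69 for mt-Nd5, -0.78 for mt-Co1, -0.81 for mt-Rnr2, -0.77 for Ctsb and 0.59 for Selplg.

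**Figure D5:**
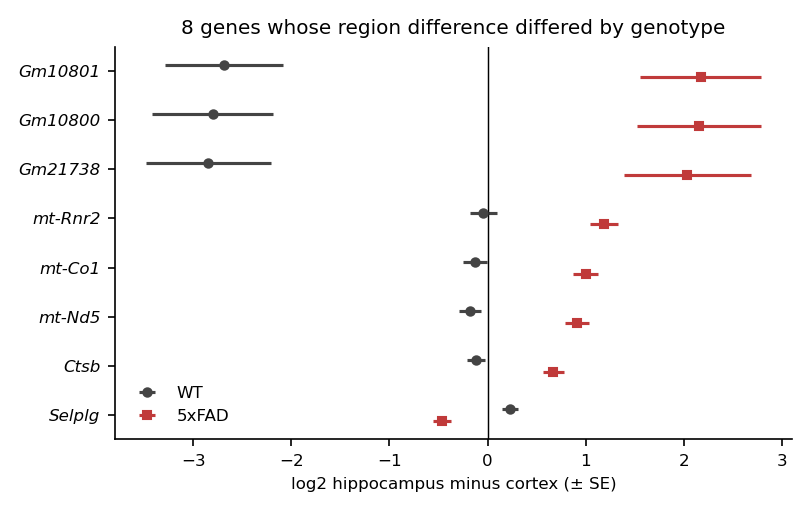
The horizontal axis is the log2 difference, hippocampus minus cortex, with its SE, in WT (gray circles) and 5xFAD (red squares) for the 8 genes whose difference differed by genotype. Ctsb and the mitochondrial genes lie near 0 in WT. Selplg lies above 0 in WT and below 0 in 5xFAD, and the 3 predicted genes lie below 0 in WT and above 0 in 5xFAD.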

How the data were processed

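Single microglia were sequenced by Smart-seq2 on 3 plates. The deposited values are raw read counts per gene and well for 48587 genes and the ERCC spike-ins. They were made with STAR 2.5.2b, featureCounts 1.5.1 and GRCm38, per the submitters' processing notes, and the sources used here give neither the gene annotation nor the strand setting. In the deposited counts, the columns of plate column 1 hold the sum of that well and wells 10 to 19 of the row, and those of plate column 2 hold wells 20 to 24 as well. Subtracting those wells left 0 negative values among 4664352, against 505427 when the next plate row was subtracted, so the wells were restored by subtraction; in this comparison it touches cortex mouse 1. Wells were filtered as the report states, and counts were summed per mouse and region into 22 sums, the mouse being the replicate.

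edgeR 4.0.16 (TMM, filterByExpr, quasi-likelihood, group as the only term, all 22 sums) in R 4.3.3 gave log2 differences and p-values, adjusted by Benjamini-Hochberg over 17358 genes; CPM values are scaled by TMM, except values of single wells and values with a well left out. DESeq2 1.42.0 and limma 3.58.1 were alternatives. The fit was tested on simulated data. Per-cell measures used exact permutation (scipy 1.17.1). Named genes are those past the threshold, filled to 8 per direction by smallest unadjusted p under the conditions in the report, with up to 3 members of each of 22 lists of smallest p and 8 fixed genes. Members and lists were chosen with earlier results of these data known. Zero counts were bounded by a floor of 3 counts. Coordinates and transcripts are from GENCODE M21 (GRCm38), matched by gene symbol. A few single genes are not reported here, though they stay in the counts over lists and over all genes. Doublets were not called.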

Additional observations from a re-analysis of the deposited data

Results flagged for a closer look

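Of 188 groups of 4 mouse values tested, 38 had a highest or lowest mouse far from the other three by Dixon's criterion, which flags about 1 in 20 groups by chance. In 10 of the 38 the other three mice were all at 0, where any read meets the criterion and that rate does not apply. Set apart from its group, cortex mouse 1 had Bhlhe40 at 4.30 CPM, H2-Ab1 at 1375 CPM, H2-Eb1 at 1229 CPM, Ifi44 at 9.12 CPM, Cxcl9 at 0.172 CPM, Atp6v0d2 at 11.4 CPM, Nt5e at 1.03 CPM and Apoe at 1796 CPM. Far from the rest, cortex mouse 2 had Apoc1 at 1.08 CPM, Pfkp at 18.4 CPM, Tgfb3 at 2.29 CPM and Smad6 at 6.50 CPM. The value set apart in cortex mouse 3 was Tyms at 66 CPM. Set apart in cortex mouse 4 were Wbp1l at 182 CPM, P2ry2 at 7.07 CPM, Aurkb at 13.8 CPM, Colec12 at 0.112 CPM, Fermt2 at 15.4 CPM, a median of 2670 genes detected per cell and a median ERCC share of 0.234%. Standing off, hippocampus mouse 1 had H2-Q7 at 7.44 CPM, Ccl4 at 92.9 CPM and Atp5o at 40.1 CPM. Apart from its group, hippocampus mouse 2 had Cxcl9 at 21.3 CPM, Colec12 at 3.71 CPM, Slc24a4 at 0.109 CPM and mt-Nd5 at 1103 CPM. For hippocampus mouse 3 the values were Klf2 at 15.4 CPM, H2-Ab1 at 598 CPM, H2-Eb1 at 487 CPM, Gsn at 3.34 CPM, Cd36 at 21.5 CPM and Apoe at 1266 CPM. Likewise, hippocampus mouse 4 had Mx1 at 8.79 CPM, Egr1 at 14 CPM, Smad6 at 0.0771 CPM, Fermt2 at 0.231 CPM and Slc39a12 at 24.1 CPM. The test of the difference between the contrasts passed its threshold for 8 genes. On the log2 scale, the hippocampus minus cortex difference in WT minus that in 5xFAD was -1.09 for mt-Nd5, -1.13 for mt-Co1, -1.23 for mt-Rnr2, -4.86 for Gm10801, -4.96 for Gm10800, -0.79 for Ctsb, 0.69 for Selplg, -4.88 for Gm21738, and plate is not separable from region in the 5xFAD mice.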

How the results depend on the processing

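Values were recomputed under 15 alternatives and by leaving out each of the 8 mice in turn. The number of genes past the adjusted threshold was 0 in the reported fit. It stayed 0 under upper quartile normalization, a filter of at least 10 CPM in 4 sums, the 8 WT sums alone and the stricter filter on cells. The same held for thinning of cells to 50000 reads and for the columns as deposited. Thinning left out the wells under 50000 reads, among them 33 of the 35 cortical wells rich in Gm10800 and 4 of the 6 hippocampal ones. The number was also 0 without the well led by other markers, the wells of plate columns 1 and 2 or the wells rich in Gm10800. It was 43 without a filter on low counts, 5 with the replicate block over 22 sums, 2 with the replicate block over the 8 WT sums, 5 with limma voom, 22 with limma on means over cells and 301 with DESeq2. It ranged from 0 to 2 when one mouse was left out, the highest without cortex mouse 3 (Poli and Il2rg). No source used here states that the number marks the same animal, the numbers were treated as labels, and the block value is given because it changes that count. Of the genes at an unadjusted p under 0.05, 26.3% were higher in hippocampus, 58.3% without the wells rich in Gm10800, 57.4% under the stricter filter on cells and 7.34% with the columns as deposited. With the 8 WT sums alone it was 50.5% and with the filter of 10 CPM 47.3%. The set of genes tested changed with the setting. It held 17358 genes in the reported fit, 14763 without the wells rich in Gm10800 and 15163 under the stricter filter. The 16 named genes kept their sign under all these settings, and all 16 kept an unadjusted p under 0.05 except that 12 did with limma on means over cells, 15 when genes of low count stayed in and 14 without plate columns 1 and 2. They were chosen by small p and absence of overlap in the same mice, so these counts are no independent support. The 8 genes whose regional difference differed by genotype became 5 with upper quartile normalization, 76 without the filter on low counts, 40 with limma voom, 252 with limma on means over cells, 367 with DESeq2, 0 under the stricter filter on cells, 3 without the wells led by other markers, 4 after thinning, 0 with the columns as deposited, 4 without the wells rich in Gm10800 and 0 to 7 with one WT mouse left out, the lowest without hippocampus mouse 3.

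Per cell, hippocampus minus cortex turned to -252096 reads with the columns as deposited, and genes detected turned from -7.88 to 36.9 with means in place of medians and ranged from -52.2 to 39.1 with one mouse left out. The mitochondrial share turned to 0.107 percentage points with means, the ERCC share to 0.0154 under the stricter filter and 0.0158 without the wells rich in Gm10800, and the ribosomal share to 0.000401 with means. Of 1955 values of the 89 named genes under these alternatives, 48 had the other sign, in 19 genes. On the log2 scale, hippocampus minus cortex, these were H2-Ab1 0.0644, Ctsa 0.544, mt-Cytb 0.346, Cd36 -0.0532, Apoe 0.138, Slc34a2 -0.140, Ctsb 0.296, mt-Nd5 0.309, mt-Co1 0.618 and mt-Rnr2 0.114 with the fit on means over cells. Likewise turned were H2-Ab1 0.984, H2-Eb1 1.03, Apoe 0.579 and Slc34a2 -0.0424 with the columns as deposited; H2-Eb1 0.394 with the replicate block over 22 sums; H2-Eb1 1.40 and Cst7 1.66 with the replicate block over 8 sums. Also turned were H2-Eb1 0.823, P2ry12 -0.0131, Cx3cr1 -0.00851, Apoe 0.00384, Cst7 0.114 and mt-Rnr2 0.00333 with limma voom; Cst7 0.126, Gm10717 0.0472 and Gm10722 0.449 with the stricter filter on cells; Cst7 0.431, Gm10800 0.202, Gm10801 0.133, Gm10717 0.0799, Gm10722 0.632 and mt-Rnr2 0.0945 with thinning; Cst7 0.0845, Gm10717 0.00770 and Gm10722 0.598 without the wells rich in Gm10800; Slc34a2 -0.00392 and mt-Rnr2 0.00751 without plate columns 1 and 2. With one mouse left out the values ran from -5.05 to 3.53 for H2-Ab1, -6.04 to 5.14 for H2-Eb1, -0.401 to 9.04 for Cxcl9, -1.60 to 3.42 for Cd36, -2.06 to 1.16 for Apoe, -2.36 to 0.250 for Cst7, -0.00933 to 0.107 for Slc34a2 and -0.0998 to 0.0101 for mt-Rnr2. The difference between genotypes turned to 0.16 for mt-Nd5, 0.40 for mt-Co1, 0.15 for Ctsb with limma on means over cells, and the cause was not tested for these turns. A regional difference below 2-fold could be bounded for most genes of at least 8 on the log2 CPM scale, for few between 4 and 8 and for none below.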
